A study of Homo sapiens with 18 samples.

Results

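The genes of the cytosolic ribosomal proteins were taken by name: every row named RPL or RPS followed by a number, with or without a final A or X, together with RPLP0 to RPLP2 and RPSA. The rule found 77 of the 58302 genes in the table, 46 of the large and 31 of the small subunit. All 77 had a value of at least 10 in all 18 libraries and entered every test. FAU, which encodes a ribosomal protein fused to a ubiquitin-like protein, lies outside the rule and is given separately.

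The mRNA of the thyroid cancer line TPC1 (papillary type) was sequenced beside that of D11, a single TPC1 clone carrying Dicer1 (+/-) made with CRISPR-Cas9. Cells of each line were left without transfection (NT), or received 5 nM of either a negative control (NC) or a Dicer1 siRNA (siDicer), and RNA was collected 4 days later. Each of the 6 groups had 3 libraries. The control of a line joined its NT and NC libraries, the latter being transfected cells. The comparisons ask how lowering Dicer1, the enzyme that cuts microRNA precursors, changes the transcripts of each line.

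Each cytosolic ribosome holds a single copy of most of these proteins, and cells keep their transcripts at coordinated levels. Most of the transcripts begin with a C followed by an unbroken run of pyrimidines, the 5' terminal oligopyrimidine (TOP) motif, through which mTOR signalling controls their translation. Other genes known for the motif, among them translation factors, nucleolar proteins and RNA-binding proteins, are called other TOP genes here.

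The motif is shown for members that the results turn on. In the RefSeq promoter table (GRCh38.p14), 62 members had an entry. Of these, 42 (67.7%) started with C and had at least 5 pyrimidines in a row from the annotated start, compared with 4.85% of the 11006 other genes that were past the filter on low values and had an entry. Among mitochondrial ribosomal protein genes the share was 7.25% of 69. The match is a property of the annotated start, read on the gene's strand, and start sites were not measured here. Each line below runs from 10 bases before the start to the 20th base from it, with the pyrimidine run in capitals.
RPLP0, chr12:120201092-120201121, minus strand: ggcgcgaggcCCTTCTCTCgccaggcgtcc
RPLP1, chr15:69452808-69452837, plus strand: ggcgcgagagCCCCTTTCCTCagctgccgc
RPLP2, chr11:809957-809986, plus strand: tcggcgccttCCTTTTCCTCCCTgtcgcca
RPS27, chr1:153990752-153990781, plus strand: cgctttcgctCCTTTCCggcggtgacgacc
RPL13A, chr19:49487598-49487627, plus strand: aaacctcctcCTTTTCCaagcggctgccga
RPL28, chr19:55385922-55385951, plus strand: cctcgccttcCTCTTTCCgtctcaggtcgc
RPL22, chr1:6199576-6199605, minus strand: cgctcacctcCCTTTCTaactccgctgccg
RPL22L1, chr3:170870176-170870205, minus strand: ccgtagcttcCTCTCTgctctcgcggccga
RPS15, chr19:1438386-1438415, plus strand: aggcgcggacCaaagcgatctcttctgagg
RPS26, chr12:56041908-56041937, plus strand: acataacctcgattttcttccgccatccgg
The windows of RPS15 and RPS26 did not meet the definition at these annotated starts, while RPL22L1, the paralog of RPL22, did. RPL5 had no entry.

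For 12 of the 18 samples the title gives another group than the description does, and groups were taken from descriptions, which match the column names. DICER1 was 1397 to 1582 in TPC1 NT, 1901 to 2492 in TPC1 NC and 246 to 395 in TPC1 siDicer libraries. In D11 it was 655 to 1157, 1407 to 1536 and 277 to 451 in the same order, so it followed the descriptions. NT lay below NC in both lines, and the joined control mixes these levels. Values are reads per gene scaled to 20 M aligned reads in each library. The depth recovered from the steps between values was 11.3 to 23.2 M reads. In such bulk samples, fewer cells of a type and less RNA per cell cannot be told apart. The study states in general that experiments were repeated independently, but the labels tie no library to a culture, so p-values measure the spread between these libraries. Of the thyroid markers, PAX8 was 7361 to 14886 and NKX2-1 was at 0 in every library. Summed fibroblast markers were 170 to 236 in TPC1 control and 356 to 631 in TPC1 siDicer libraries. In D11 they were 40 to 94 and 91 to 144. LUM was 89 to 157 in TPC1 control and 273 to 517 in TPC1 siDicer libraries, and COL1A1 was 67 to 100 and 80 to 134. PDGFRA went the other way in TPC1, at 4 to 9 and 2 to 3. COL1A2 was 0 to 2 and DCN was at 0 in every library. The part of these genes in the results was not tested.

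The family was abundant and moved as a unit from library to library. It made up 3.12% to 3.90% of the library total in TPC1 and 3.47% to 4.91% in D11. Single values ran from 1353 to 32027 per 20 M reads. The level per kilobase of the canonical transcript in GENCODE was highest for RPL7A (25964), RPS20 (22838) and RPS18 (22028), and lowest for RPL37 (898), RPL14 (1183) and RPL27A (1602). The 3 lowest have canonical transcripts longer than 4000 bases, as does 1 other member, so their place in the order rests on the transcript chosen.

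The shift of a library is the median over the 77 members of the log2 difference from the member's mean in the 6 control libraries of the line. TPC1 NT libraries had shifts of 0.00, -0.06 and 0.17, NC libraries 0.02, -0.04 and -0.08, and siDicer libraries -0.15, -0.01 and -0.10. The TPC1 siDicer shifts overlapped those of NC, and NT replicate 3 was the highest. D11 NT libraries had shifts of 0.34, -0.11 and 0.09, NC libraries -0.16, -0.11 and -0.04, and siDicer libraries -0.07, -0.15 and -0.10. D11 NT replicate 1 stood apart: all 77 members were above their control mean and the family took 4.91% of its total. The median over all genes past the filter was -0.05 to 0.03 in the 18 libraries. The subunits moved together, with shifts of 0.34 (large) and 0.35 (small) in D11 NT replicate 1, for example. The pooled SD of the shift within groups was 0.12, which is larger than the difference between siDicer and control in either line. The SD was 0.23 in D11 NT and 0.04 to 0.12 in the other groups, so D11 NT weighs on the pooled value. It is the spread of single libraries and not the error of a difference between group means, so it does not test the shift.

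**Figure D1:**
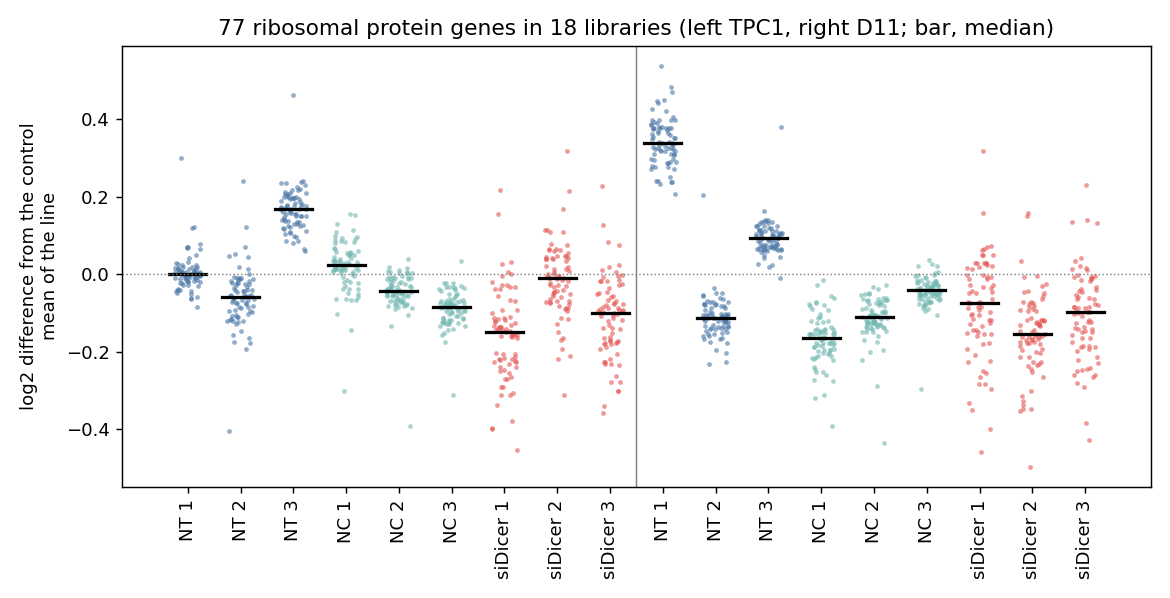
Each point is 1 of 77 members in 1 library, plotted as the log2 difference from its mean in the 6 control libraries of the line; black bars are library medians, and colours are NT (blue), NC (green) and siDicer (red). D11 NT replicate 1 lies highest (median 0.34) and all 77 of its points are above 0.

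Members stayed closer to their common shift than other abundant genes did to theirs. With each control library set against the other 5 controls of its line, the median absolute deviation of the members around the library's shift was 0.020 to 0.045 in TPC1 and 0.022 to 0.046 in D11. For 4888 other genes with a mean of at least 1000 it was 0.095 to 0.210 in TPC1 and 0.086 to 0.245 in D11. These genes were not matched to the members in level and are not a single family.

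In siDicer compared with control, the median log2 change of the members was -0.09 in TPC1 and -0.10 in D11, beside -0.04 for all genes tested in each line. In TPC1, 66 of 77 members were below 0, against 54.7% of all genes, and in D11 it was 70 of 77 against 54.3%. By limma with adjustment over all genes, 0 members were higher in TPC1 (5.88% of 18475 genes were) and 1 was lower (7.94%). In D11, 0 were higher (9.38% of 18413 genes) and 1 was lower (12.8%). At an unadjusted p under 0.05, 0 members were higher and 14 lower in TPC1 (13.1% and 17.3% of all genes), and 0 higher and 9 lower in D11 (15.1% and 20.4%). No member was called with a fold change of at least 1.5, whereas 3.22% of all genes were higher and 4.16% lower by it in TPC1, and 5.26% and 6.75% in D11. All siDicer libraries lay below all controls for 8 members in TPC1 (9.91% of all genes) and 9 in D11 (14.1%), and above them for 0 (7.62% and 11%). RPS2 and RPL8 were among those below in both lines. The counts of lower members were thus near or under the background in each line. Under TMM scaling the medians were -0.02 and -0.06. Against NT alone they were -0.12 in TPC1 and -0.20 in D11, and against NC alone -0.05 and -0.00. Without D11 NT replicate 1, the D11 median was -0.03 and 3 members were lower (13.9% of all genes). With the replicate number as a block, 3 members were lower in D11, among them RPS26 (adjusted p = 0.0260 by limma) and RPL8 (0.0490), against 15.8% of all genes. In both lines 0 members were lower under TMM or RLE scaling, with no filter on low values, and after the trend with GC content and length was removed. Leaving out 1 library gave 0 to 7 lower members in TPC1 (7 without NT replicate 2, against 11.8% of all genes) and 0 to 3 in D11, where 5.89% to 13.9% of all genes were lower. In each of these fits the share of members that were lower was under that of all genes.

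The departure of a member is its change after the family shift was taken out of every library. In siDicer compared with control, 0 members departed at an adjusted p under 0.05 in either direction in either line, while 5.43% of all genes were called higher and 3.78% lower than the family in TPC1, and 5.61% and 4.67% in D11. At an unadjusted p under 0.05, 2 members were higher and 3 lower in TPC1 (15.9% and 10.4% of all genes), and 2 higher and 5 lower in D11 (15.3% and 11.5%). Relative to the family, all siDicer libraries lay above all controls for 7 members in TPC1 (8.24% of all genes) and 14 in D11 (12.3%), and below them for 10 (6.48%) and 12 (7.91%). RPL13A, RPL22, RPL27A, RPL34 and RPS27 lay above in both lines. RPL12, RPL31, RPL35, RPL8, RPS2 and RPS7 were among those that lay below in both. Subtracting the family median takes out what members share and not what other genes share, so these shares of all genes are no like-for-like background.

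The departures in the lines, which share no libraries, had a Pearson r of 0.92 over the 77 members and of 0.91 without RPLP0, and 72 members were on the same side of the family in both. This is a description across genes that share libraries within a line and are not independent replicates. Among the lowest departures were those of RPS26 (-0.20) and RPL7 (-0.17) in TPC1, and RPS26 (-0.26) and RPS15 (-0.23) in D11. The highest were those of RPLP0 (0.34), RPL28 (0.20) and RPL13A (0.18) in TPC1, and RPLP0 (0.34), RPS27 (0.26) and RPL22 (0.16) in D11. For RPLP0 the joined control mixes unlike levels. Relative to the family, its TPC1 libraries were at 0.29 to 0.30 (NT), -0.35 to -0.23 (NC) and 0.33 to 0.36 (siDicer). In D11 they were at 0.20 to 0.32, -0.32 to -0.23 and 0.31 to 0.39, so its departure rests mainly on low NC libraries. Members with the TOP motif had a median departure of 0.00 in TPC1 and 0.01 in D11, and the 20 with another start -0.00 and -0.01. The r of the departure with GC content was 0.07 in TPC1 and -0.21 in D11. The interaction of line and siDicer called 0 members and 0 of 19181 genes by limma, with 0.313% of genes higher, 0.381% lower and 0 members at an unadjusted p under 0.05. Both shares are far under what a threshold of 0.05 gives without any interaction, so this fit could call little. Its 0 calls do not show that the lines respond alike.

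**Figure D2:**
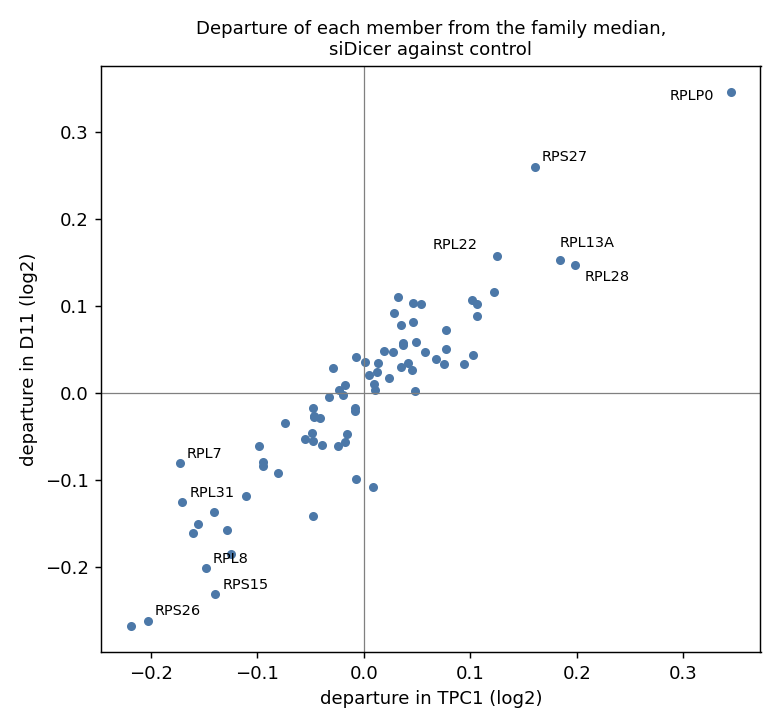
Each point is a member, with its departure from the family median in siDicer compared with control in TPC1 (x axis, log2) and D11 (y axis, log2). RPLP0 lies at 0.34 on both axes, with a joined control in which its NC libraries were far below NT. RPS26 lies at -0.20 (TPC1) and -0.26 (D11).

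For RPS27, a small subunit protein, TPC1 NT libraries had 5077, 5334 and 6259, NC had 5606, 5276 and 4846, and siDicer had 5280, 6243 and 5469. D11 NT libraries had 7295, 5969 and 6772, NC had 5348, 5898 and 5930, and siDicer had 6887, 6847 and 6803. The D11 siDicer libraries lay above all NC libraries and within the range of NT. The departure from the family was 0.16 (adjusted p = 0.218 by limma) in TPC1 and 0.26 (0.0745) in D11, and without D11 NT replicate 1 the latter was 0.24 (0.0412). The paralog RPS27L was 1347 to 1992 in TPC1 and 1785 to 2463 in D11 and was not called in either line (adjusted p = 0.610 and 0.710).

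RPS26, also of the small subunit, had 3150, 2188 and 3258 in the NT libraries of TPC1, with 3223, 2736 and 2963 for NC and 2367, 2331 and 2386 for siDicer. The D11 values were 4508, 2757 and 3287 for NT, 3192, 2644 and 3273 for NC, and 2824, 2287 and 2400 for siDicer. Replicate 2 was lowest in every group of both lines. The change was -0.29 (SE 0.12) in TPC1 (adjusted p = 0.126 by limma) and -0.37 (SE 0.15) in D11 (0.0875). With the replicate number, which was taken to pair the D11 libraries, as a block, RPS26 fell by 0.37 (SE 0.11) in D11 with an adjusted p of 0.0260 by limma.

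None of the members with roles outside the ribosome, nor those of its factor-binding stalk, passed the test in siDicer compared with control. RPL5 and RPL11, which with 5S RNA bind MDM2, had departures of -0.03 and 0.03 in TPC1, and -0.01 and 0.05 in D11. RPS6, the substrate of S6 kinases, had -0.04 in TPC1 and -0.03 in D11. In the same order RPS27A, a ubiquitin fusion, had 0.01 and 0.02, and RPS4X, an X-linked small subunit gene, had 0.01 and 0.03. RPLP1 and RPLP2, the acidic stalk proteins, had 0.06 and 0.05 in TPC1 and 0.05 and 0.00 in D11. RPL41, the shortest of the proteins, lay further from the family, at -0.16 in TPC1 and -0.15 in D11, and did not pass the test either. FAU changed by -0.07 and -0.20 between siDicer and control and did not pass.

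RPLP0, the third stalk protein and a widely used reference gene, stood apart from the family in NC. TPC1 libraries had 23844, 22906 and 26668 (NT), 15739, 14761 and 15616 (NC), and 22511, 24149 and 22676 (siDicer). D11 libraries had 32027, 25445 and 28704 (NT), 16835, 16327 and 17972 (NC), and 27507, 24646 and 25873 (siDicer). The NC libraries lay below every NT and every siDicer library of their line, while NT and siDicer overlapped.

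Compared with NT, RPLP0 in NC changed by -0.67 (SE 0.09) in TPC1, with an adjusted p of 0.0512 by limma, and by -0.75 (SE 0.11) in D11, with 0.0380. In TPC1, 0 members were higher and 0 lower in NC at the threshold (0.0333% and 0.0777% of 18008 genes), and in D11 RPLP0 was the 1 member of 77 that was lower (0.200% of 17992 genes) while 0 were higher (0.156%). At an unadjusted p under 0.05, 1 member was lower in TPC1 (5.28%) and 3 in D11 (5.72%), and 0 were higher (5.84% and 7.88%). Its departure from the family was -0.60 (adjusted p = 0.0365) in TPC1, where 0.0611% of genes were called lower and 0.0777% higher than the family, and -0.54 (0.170) in D11, where 0 genes were called by limma and 0.834% were lower at an unadjusted p under 0.05. In a fit of both lines with line as a term, added after the data were seen, it was -0.71 (SE 0.07, adjusted p = 4.88e-05), 1 member of 77 against 3.22% of 18814 genes. The departure in that fit was -0.56 (adjusted p = 0.000171 by limma), and 0.659% of genes were called lower than the family. RPLP0 in D11 was called in the block fit too (adjusted p = 0.00524 by limma), where 0.889% of all genes were lower. In the block fit of TPC1, RPLP0 was the 1 member called lower, against 3.42% of all genes. With 1 library left out, its departure was -0.63 to -0.57 in TPC1 and -0.57 to -0.50 in D11, and its change was -0.71 to -0.60 and -0.83 to -0.67. The departure call in TPC1 was lost without NT replicate 1 or 3 or NC replicate 1 or 3 (adjusted p by limma up to 0.285), the change in TPC1 was called without NT replicate 2 (0.0280), and the D11 call was lost without NT replicate 3 or any NC library (up to 0.242) and with no filter on low values (0.109). Of its pseudogenes, RPLP0P6 was 163 to 218 in TPC1 NT, 100 to 119 in NC and 163 to 195 in siDicer, and its reads cannot be told apart from those of RPLP0 where they are shared.

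The siDicer change of RPLP0 depended on which control was used. Against NC, RPLP0 rose by 0.59 (adjusted p = 0.00549 by limma) in TPC1 and by 0.61 (0.00146) in D11. Against NT the change was -0.08 (0.626) and -0.14 (0.368), and against the joined control 0.25 (0.396) and 0.24 (0.432). These comparisons share the siDicer libraries. With NC alone as control, RPS26 in TPC1 (-0.33, adjusted p = 0.0420) and RPS27 in D11 (0.26, 0.0420) were also called by limma. In all, 1 member was higher (5.26% of all genes) and 1 lower (6.06%) in TPC1, and 2 were higher (7.92%) and 1 lower (9.73%) in D11. With NT alone, 0 members were called in TPC1 (4.08% higher and 3.47% lower), and 0 were higher (12.6%) and 7 lower (13.6%) in D11, among them RPS15 (-0.48, adjusted p = 0.0221), RPL8, RPL35, RPL12, RPS2 and RPL41.

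**Figure D3:**
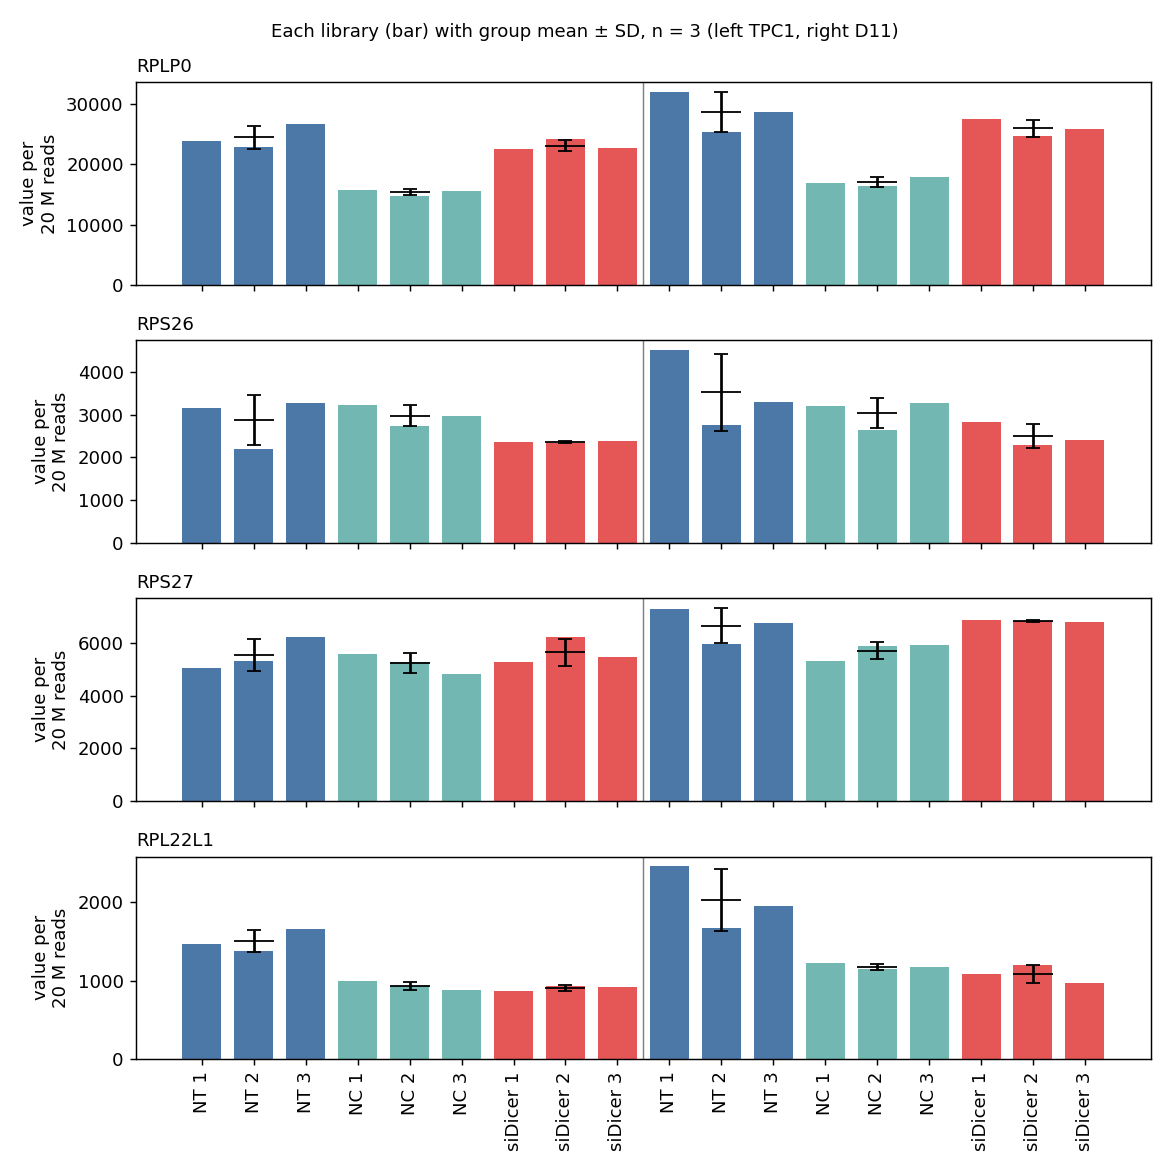
Bars are the values per 20 M reads of RPLP0, RPS26, RPS27 and RPL22L1 in each of 18 libraries, NT (blue), NC (green) and siDicer (red), with the mean and SD of each group of 3. RPLP0 is lowest in the NC libraries of both lines (14761 to 17972), and RPL22L1 is highest in NT.

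Most of the other members in TPC1, and all of them in D11, had lower mean values in NC than in NT, without passing the test. The median change was -0.07 in TPC1, where 74 of 77 members were below 0 (49.8% of all genes were), and -0.21 in D11, where all 77 were (47.3%). All NC libraries lay below all NT libraries for 5 members in TPC1 (8.33% of all genes) and 8 in D11 (9.03%), and above them for 0 (8.20% and 10.8%). The D11 median was -0.09 without NT replicate 1, and the TPC1 median was 0.00 without NT replicate 3. The members furthest from the family in TPC1 besides RPLP0 were RPL3 (-0.12) and RPL12 (-0.11) on the low side and RPS26 (0.14), RPL38 (0.08) and RPL22 (0.08) on the high side. In D11 they were RPL39 (-0.09) and RPS15 (-0.07), and RPS24 (0.13), RPS23 (0.12) and RPL15 (0.11). None of these departures passed the test.

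**Figure D4:**
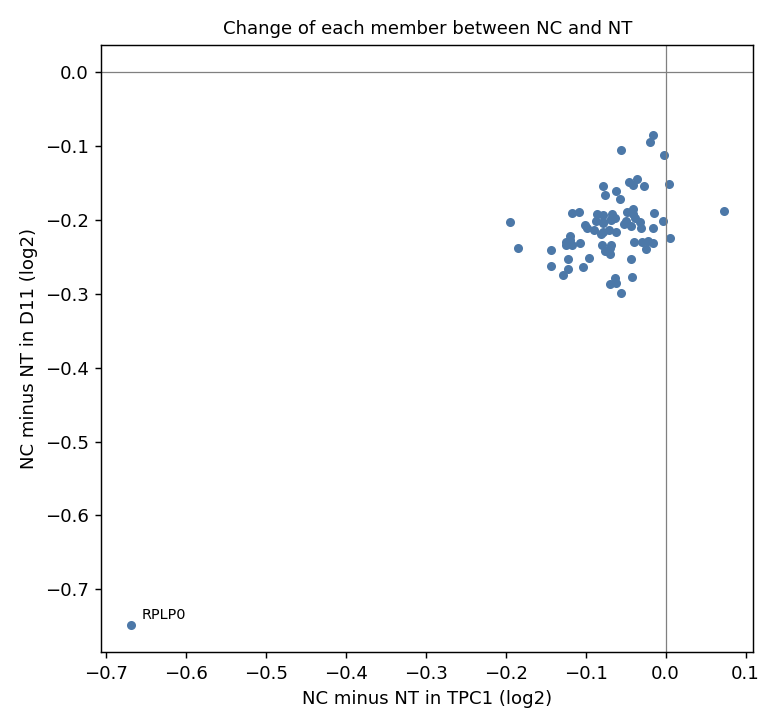
Each point is a member, with its log2 change in NC compared with NT in TPC1 (x axis) and D11 (y axis). RPLP0 (-0.67 and -0.75) lies apart from the other 76 members.

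RPL22L1, a paralog of RPL22, had its highest values in NT. The NT, NC and siDicer libraries of TPC1 had 1466, 1379 and 1662, then 988, 924 and 880, then 860, 934 and 914. Those of D11 had 2459, 1674 and 1950, then 1217, 1142 and 1168, then 1084, 1202 and 967. NT lay above all transfected libraries in both lines, and NC and siDicer overlapped. Compared with NT, RPL22L1 in siDicer changed by -0.73 (SE 0.11, adjusted p = 0.0180 by limma) and -0.89 (SE 0.15, 0.00330). NC changed by -0.69 (0.0710) and -0.77 (0.0669), and in both lines together by -0.73 (0.000315). RPL22L1 in siDicer compared with NC changed by -0.04 (0.779) and -0.12 (0.463). RPL22 was 3726 to 4082 in TPC1 and 3863 to 5141 in D11, with changes of 0.03 (0.763) and 0.05 (0.775) in siDicer compared with control.

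Among the other paralogs in siDicer compared with control, RPL7L1, a nucleolar relative of RPL7, fell by 0.33 (adjusted p = 0.0357 by limma) in TPC1 and by 0.32 (0.0112) in D11. RPL26L1, a near copy of RPL26, changed by -0.40 (0.0814) and fell by 0.68 (0.0180), and RPL36AL changed by -0.22 (0.151) and -0.30 (0.0937). Of 5 paralogs tested, 1 was lower in TPC1 (7.94% of all genes were) and 2 in D11 (12.8%), and 0 were higher (5.88% and 9.38%).

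Without siRNA against Dicer1, the mean log2 value in D11 was higher than in TPC1 for all members, while single libraries overlapped. Over the 12 control libraries the median log2 difference was 0.17, and 0 of 77 members were below 0 (51.7% of all genes were). It was 0.11 without D11 NT replicate 1. All D11 control libraries lay above all those of TPC1 for 0 members (0.308% of all genes). By limma, 0 members passed the test (0.234% of 18814 genes were higher and 0.957% lower), and 35 members were higher at an unadjusted p under 0.05 (3.85%). Members share the shift of each library, so these 35 are not independent. D11 is a single clone, so the clone and the Dicer1 allele cannot be told apart. RPL28 (0.09) was among those furthest above the family, and RPL17 (-0.07), RPS29 (-0.05) and RPS7 (-0.05) lay furthest below, with no departure called.

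Several other lists had medians further from 0 in siDicer compared with control, where 7.94% of all genes fell and 5.88% rose in TPC1, and 12.8% fell and 9.38% rose in D11. Of 78 mitochondrial ribosomal protein genes, which translate the mitochondrial genome's messages, 17 fell and 0 rose in TPC1 (median -0.20), and 30 fell and 0 rose in D11 (median -0.31). In both lines MRPS2 (-1.31, adjusted p = 0.000423 by limma, and -1.48, 4.57e-05), MRPS33 (-1.20, 0.000503, and -1.37, 0.000189) and MRPS17 (-0.80, 0.00756, and -0.94, 0.00103) fell. Of 42 rows of ribosome biogenesis genes, 1 fell in TPC1 (median -0.15), a share under that of all genes, and 11 in D11 (median -0.24). In TPC1 the median shift of this list was -0.002, -0.352 and -0.023 in siDicer replicates 1, 2 and 3. Replicate 2 was also the lowest in TPC1 NT (-0.454) and NC (-0.180). The smallest adjusted p-values in D11 were those of NAT10, an RNA acetyltransferase (-0.52, 0.0370, and -0.57, 0.00178), LYAR, a nucleolar protein (-0.46, 0.112, and -0.74, 0.00342), and EMG1, an rRNA methyltransferase listed in 2 rows (-0.39, 0.108, and -0.56, 0.0194 in the row with the smaller p). Whether these lists differ from the cytosolic family was not tested.

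The 20 other TOP genes had medians of -0.09 in each line, with 3 lower in TPC1 (7.94% of all genes) and 2 in D11 (12.8%). HNRNPA1, an RNA-binding protein, fell by 0.28 (adjusted p = 0.0373 by limma) and 0.27 (0.0340), and NPM1, a nucleolar chaperone, changed by -0.32 (0.111) and fell by 0.35 (0.0486). NACA, a ribosome-bound chaperone, fell by 0.29 (0.0489) in TPC1 and changed by -0.32 (0.0510) in D11. Of 39 oxidative phosphorylation genes with short transcripts, 4 fell in TPC1 (median -0.11) and 3 in D11 (median -0.22), namely in D11 COX8A (-0.38, 0.00960, and -0.58, 0.00459), NDUFB4 (-0.29, 0.0841, and -0.38, 0.0191) and COX7A2 (-0.33, 0.0166, and -0.46, 0.0231). The share that fell was near that of all genes in TPC1 and under it in D11. Of 8 snoRNA host genes, GAS5 rose by 0.27 (0.0497) in TPC1 (0.25, 0.154 in D11), and SNHG1 (-0.44, 0.109, and -0.56, 0.0131) fell in D11. SNHG7 changed by -0.08 (0.655) and -0.33 (0.117). Of 18 regulators of TOP translation, 3 rose (5.88% of all genes in TPC1, 9.38% in D11) and 1 fell in each line, the latter under the share of all genes. TSC1, which restrains mTOR, rose by 0.60 (0.0236) and 0.80 (0.00522), EIF4EBP2, a translation repressor, rose by 0.55 (0.0110) and 0.55 (0.00698), and the cap-binding factor EIF4E fell by 0.32 (0.0498) and 0.36 (0.0111).

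**Figure D5:**
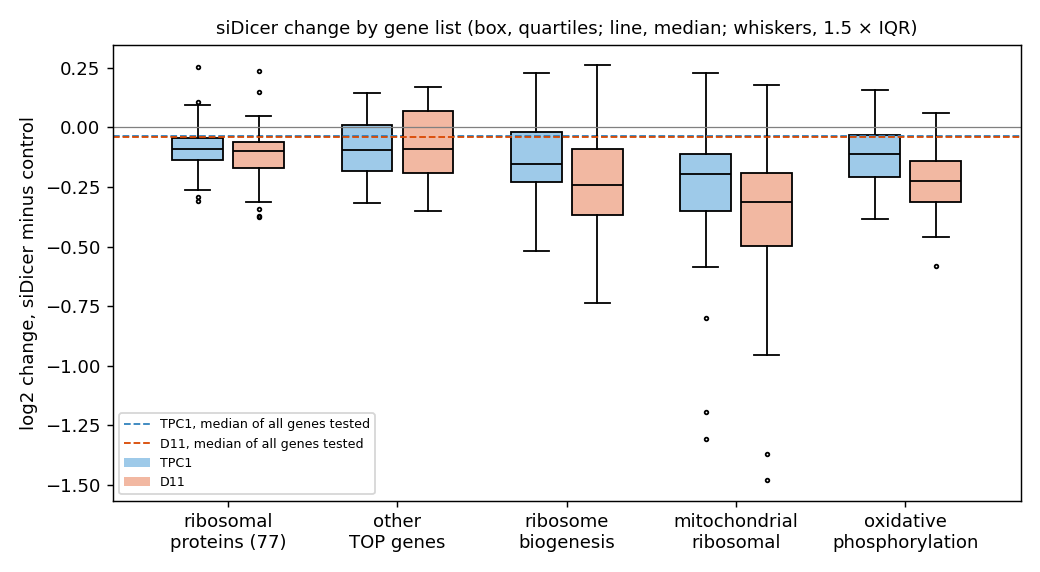
Boxes are the log2 changes, siDicer minus control, of 77 members and of the genes of 4 other lists in TPC1 (blue) and D11 (orange), with quartiles, medians, whiskers to 1.5 interquartile ranges and points beyond. The members have medians of -0.09 and -0.10, and the mitochondrial ribosomal protein genes lie lowest (-0.20 and -0.31).

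The family shift was followed over the 18 libraries by its members with a median Pearson r of 0.94, and 61 of 77 had an r of at least 0.9. The lowest were RPLP0 (0.52), RPS27 (0.73) and RPS26 (0.77). Of 4888 other genes with a mean of at least 1000, the median r was 0.01 and 1.72% reached 0.8, while 8 of the 20 other TOP genes did. The 10 most alike had r of 0.93 to 0.98, and 6 of them overlap a member: AC135178.2 (RPL26), AP003352.1 (RPL30), RPS10-NUDT3, AC010761.1 (RPL23A), ATG10 (RPS23) and RPL36A-HNRNPH2. The other 4 were RACK1 (0.95), a protein of the small subunit, EEF1G (0.94), an elongation factor, AP002990.1 and RPL9P9. The family shift is the median of these same members, so part of a member's r is fixed by that, while the other genes do not enter it. The libraries share depth and composition effects, and these correlations are a description.

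Overlapping genes bear on single values. Of the 77 members, 56 overlap another annotated gene, and it is not stated whether counting used the strand, which library preparation kept. AP003352.1, AC010761.1 and ATG10, which followed the family shift (r of 0.97, 0.95 and 0.95), are annotated on the strand opposite their member. The strand setting was not tested. Reads shared with 951 ribosomal protein pseudogene rows are uncertain too. The read-through gene RPS10-NUDT3 was 9506 in TPC1 NT replicate 1 where RPS10 was 7956, RPL17-C18orf32 was 7669 where RPL17 was 7611, and RPL36A-HNRNPH2 was 3694 where RPL36A was 3021. The shift of each library differed by less than the spread within groups when RPL17, RPS10 and RPL36A were left out.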

How the data were processed

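Stranded mRNA libraries were made from total RNA of 18 samples. The authors used STAR 2.5.3a for alignment to GRCh38 and HTSeq 0.9.1 for counting per gene. They scaled each library to 20 M aligned reads, and the deposited values are whole numbers, a normalised score and not counts. Reads shared between near-identical genes, and the strand setting, are not described. Here, log2(value + 1) was tested with limma 3.58.1 in R 4.3.3 (eBayes with trend, two-sided, Benjamini-Hochberg over all genes tested) for genes with at least 10 in at least 3 libraries of a fit, and called at an adjusted p under 0.05. Fold changes on this scale understate those of low genes. Departures used the same fit after each library's family median was subtracted from all genes. Scripts were tested on simulated data. Groups came from the sample descriptions. Positions and lengths came from GENCODE, matched by identifier for all 77 members.

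Members, lists and tests were chosen with earlier results of these data known. Named genes were a set of members with known roles, the 3 highest and 3 lowest departures in each comparison, those called with a fold change of at least 1.5, the levels per kilobase, the read-through genes, the genes most like the family, and, of each other list, the 3 genes whose adjusted p was smallest in D11 (marker lists are given as sums). Members listed because their groups did not overlap, GAS5, and those called with NT alone were named after their values were seen. Some genes that these rules name are not reported here.

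Libraries with the same replicate number correlated in their deviations from group means at 0.106 to 0.473 in D11 (9 of 9 pairs over 0.1; different numbers, -0.383 to 0.169), so the number was taken to pair the D11 libraries. In TPC1 such pairs correlated at 0.0861 to 0.509 (7 of 9 over 0.1) and were not taken as paired. The main fits of both lines left the pairing out. No libraries of a group agreed within sampling noise. Alternatives were TMM and RLE scaling, other pseudocounts, no filter, GC and length correction, a replicate block, NT or NC alone, all 18 libraries, groups from titles, other family centres and leaving out each library, and, added later, voom on recovered reads and NC against NT in both lines together.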

Additional observations from a re-analysis of the deposited data

Results flagged for a closer look

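In 48 groups of 6 control libraries, for the family shift, named members and paralogs, 7 held a library whose gap to the nearest other exceeded Dixon's critical value for 6 samples, and chance flags about 1 group in 20. All 7 were the highest library. In TPC1, NT replicate 3 was highest for RPL5 (13993), RPL8 (21880), RPS15 (5342) and RPS6 (15569). In D11, NT replicate 1 was highest for RPL28 (12242), RPS26 (4508) and RPS27A (11615). These are the libraries with the highest family shift of their line, which itself did not pass this criterion in either line.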

How the results depend on the processing

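The family shift of each library moved by less than the spread within groups without read-through members and under TMM or RLE scaling. That spread is larger than the siDicer difference, so this limit does not show that the difference was kept. With TMM scaling the TPC1 siDicer shifts were -0.09, 0.02 and -0.01, beside -0.15, -0.01 and -0.10 in the main values. Those of D11 were -0.05, -0.12 and -0.05, beside -0.07, -0.15 and -0.10. Members called lower in siDicer compared with control numbered 0 in each line under TMM scaling, RLE scaling, no filter on low values, the GC and length correction and groups from the titles. They numbered 2 in each line by voom (8.55% of all genes in TPC1, 12.4% in D11), and 4 in TPC1 (10.4%) and 8 in D11 (14.9%), with 1 higher in each (8.76% and 11.6%), in the fit of all 18 libraries, so each share was under that of all genes. With NT alone they numbered 0 in TPC1 and 7 in D11, and with NC alone 1 (TPC1) and 2 (D11) members were higher, 1 in each with a fold change of at least 1.5. With the replicate block 3 were lower in D11. With groups from the titles the family median became 0.0294 in TPC1 and 0.0301 in D11. One member departed downward in D11 under the GC and length correction and with other TOP genes in the family centre. Leaving out 1 library gave 0 to 7 lower members in TPC1 (7 without NT replicate 2, against 11.8% of all genes, and 4 without siDicer replicate 2, against 10.6%) and 0 to 3 in D11 (5.89% to 13.9%), 0 to 1 departing downward in each line, and 0 to 1 upward in D11.

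In NC compared with NT, 1 member was lower in TPC1, with a fold change of at least 1.5, under the replicate block (RPLP0, adjusted p = 0.00210 by limma), a pseudocount of 0.1, voom and the fit of both lines, against 0.0777% to 3.42% of all genes. In D11 it was 0 with no filter and with groups from the titles, and 1 departed in the fit of both lines. Leaving out 1 library gave 0 to 1 lower or called members in each line, 0 to 1 departing in TPC1, and a D11 family median of -0.324 to -0.0924. In TPC1, pairs with the same number correlated at 0.0861 to 0.509 (7 of 9 over 0.1), and those with different numbers at -0.491 to 0.180. The D11 ranges were 0.106 to 0.473 and -0.383 to 0.169. Numbers were not taken to pair the TPC1 libraries because of the 0.1 limit alone, and the main fits of both lines had no block. With the block, 3.28% of all genes were higher and 3.42% lower in NC compared with NT in TPC1, against 0.0333% and 0.0777% without it. The block changed no other count of members by over 1.5 times. The cause of these changes was not tested. Overlapping genes, the depth and 3 libraries a group limit what can be seen of small changes.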
